A study of Mus musculus with 8 samples.

Results

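Expression of 9 genes of bone morphogenetic protein (BMP) signalling was compared between mouse mesenchymal stem cells (MSCs, the stromal cells that can give rise to bone, fat and cartilage) cultured under 2% oxygen, called hypoxia, and under 21% oxygen, called normoxia. The genes were Bmp2, Bmp4 and Bmp6, which encode BMP ligands, Bmp1, Nog and Grem1, and the target genes Id1, Id2 and Id3. They were found by their symbols among the 53465 gene identifiers of an RNA-seq count table. All 9 were present, and all 9 were among the 14369 genes that passed the filter on low counts and were tested. Each group held 4 samples, numbered from 1 to 4.

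Cells of both groups were bone-derived MSCs of wild-type C57BL/6N mice, aged 3 to 5 months per the labels. The study describes growing them out of bone pieces treated with collagenase. They were grown in α-MEM with 5% CO2 at 37 °C. The sort selected CD45-/TER-119-/CD140a+/Sca-1+ cells, so blood cells should be depleted. The labels place it on day 12, after culture in either oxygen condition. The study's text instead describes sorting hypoxic cells and then dividing them between the conditions, so the 2 sources differ on whether the sort came before or after the exposure. The study calls the 4 samples of each group biologically independent replicates, but how many mice stand behind each is not given in the sources used here.

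BMP ligands are secreted dimers that bind type I and type II serine/threonine kinase receptors. The activated type I receptor phosphorylates SMAD1, SMAD5 and SMAD9, which then bind SMAD4 and move to the nucleus. The Id genes are classic direct targets of these SMADs, and their proteins hold E proteins away from DNA. Noggin and gremlin-1, the products of Nog and Grem1, are secreted antagonists that bind BMP ligands outside the cell. Bmp1 carries the family name but encodes a tolloid metalloprotease, which matures procollagen and cleaves the BMP antagonist chordin. In the skeleton BMP signalling is best known for driving bone and cartilage formation.

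The antagonists moved furthest of these genes, and in opposite directions. Grem1 was 2.40-fold higher in normoxia than in hypoxia, while Nog was 0.682 times its hypoxic level. Bmp4 rose slightly, by 0.33 on the log2 scale, and Id2 fell by 0.24. For Bmp1, Bmp2, Bmp6, Id1 and Id3 no difference was called. Thus 2 of the 9 genes were higher and 2 were lower in normoxia at an adjusted p under 0.05 (limma-trend), which is 44.4% of them. Among all tested genes 34.6% were called, 18% as higher and 16.5% as lower, so a call by itself was common in this comparison. The median log2 change (normoxia minus hypoxia) was -0.09 over the 9 genes and 0.0049 over all tested genes.

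For the called genes with an entry in the RefSeq promoter table (GRCm38.p6), the 250 bases before and 50 bases after the transcription start are shown. Sequence outside these windows was not searched. An entry was found for 5 of the 9 genes, which were Bmp4, Bmp6, Grem1, Id2 and Id3. Capitals mark the hypoxia response core, ACGTG or GCGTG, and GGCGCC, a GC-rich SMAD-binding sequence, each searched on both strands. The windows are chr2:113758599-113758898 (minus strand) for Grem1, chr14:46390620-46390919 (minus strand) for Bmp4 and chr12:25096043-25096342 (minus strand) for Id2, written 5′ to 3′.
Grem1: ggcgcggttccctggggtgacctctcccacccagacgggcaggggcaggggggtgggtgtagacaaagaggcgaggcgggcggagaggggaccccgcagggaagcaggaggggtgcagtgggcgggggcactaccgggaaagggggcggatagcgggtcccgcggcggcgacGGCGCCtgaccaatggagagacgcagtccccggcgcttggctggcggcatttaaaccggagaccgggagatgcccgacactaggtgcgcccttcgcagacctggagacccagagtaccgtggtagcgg
Bmp4: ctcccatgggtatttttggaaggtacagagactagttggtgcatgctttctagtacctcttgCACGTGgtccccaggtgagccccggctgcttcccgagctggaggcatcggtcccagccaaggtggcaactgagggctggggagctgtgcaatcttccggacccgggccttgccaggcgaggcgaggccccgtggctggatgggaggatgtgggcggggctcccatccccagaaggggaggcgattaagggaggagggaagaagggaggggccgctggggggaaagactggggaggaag
Id2: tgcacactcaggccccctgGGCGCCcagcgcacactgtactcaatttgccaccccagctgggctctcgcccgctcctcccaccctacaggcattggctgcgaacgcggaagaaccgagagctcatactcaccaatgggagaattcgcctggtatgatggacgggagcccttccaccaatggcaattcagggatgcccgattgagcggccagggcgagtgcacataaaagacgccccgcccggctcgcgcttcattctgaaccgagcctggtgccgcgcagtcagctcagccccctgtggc
The Grem1 window held GGCGCC at -78 from the start and neither form of the hypoxia core. The Bmp4 window held the palindrome CACGTG from -188, which matched on both strands, and no GGCGCC. The Id2 window held GGCGCC at -231, but its RefSeq start lies 1048 bases downstream of the GENCODE gene start. Bmp6 and Id3, which were not called in the main comparison, also held the hypoxia core in their windows, not shown, and no GGCGCC. It lay at -222 and from -127 in Bmp6 and at -8 in Id3. Their RefSeq starts lie 609 and 325 bases downstream of the GENCODE gene starts. Of 32851 RefSeq promoters of this length, 43.8% held ACGTG or GCGTG and 11.9% held GGCGCC. These matches are letters in a window and were set against no measurement of binding.

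Grem1 (ENSMUSG00000074934, chromosome 2, 113746164 to 113758646, GRCm38, minus strand) gave 25.2, 29.0, 18.6 and 25.0 CPM (counts scaled to a common library size with TMM factors) in hypoxia samples 1 to 4. In normoxia samples 1 to 4 it gave 76.6, 49.6, 57.6 and 52.3 CPM. Every normoxic value was above every hypoxic one, and normoxia 1 stood highest. The mean rose from 24.5 ± 4.34 to 59.0 ± 12.2 CPM (SD, n = 4 each), or 1.26 log2 units (SE 0.147, 95% interval 0.94 to 1.58, limma-trend adjusted p = 0.000132). Only 0.912% of tested genes changed by more. For scale, 2.15% of tested genes were called with a change of at least 1 in size. Between samples of the same number Grem1 was higher in normoxia in 4 of 4 pairs, by 1.60, 0.77, 1.62 and 1.06 on the log2 scale.

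Nog (ENSMUSG00000048616, chromosome 11, 89300638 to 89302332, minus strand) went the other way. Its hypoxic values were 18.0, 23.1, 22.0 and 20.2 CPM, and its normoxic values were 12.3, 13.9, 15.2 and 15.1 CPM. The lowest hypoxic value lay above the highest normoxic one. The mean fell from 20.8 ± 2.23 to 14.1 ± 1.34 CPM (SD, n = 4 each), which is a change of -0.55 log2 units (SE 0.104, 95% interval -0.78 to -0.32, limma-trend adjusted p = 0.00181). Nog was lower in normoxia in 4 of 4 same-numbered pairs.

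**Figure D1:**
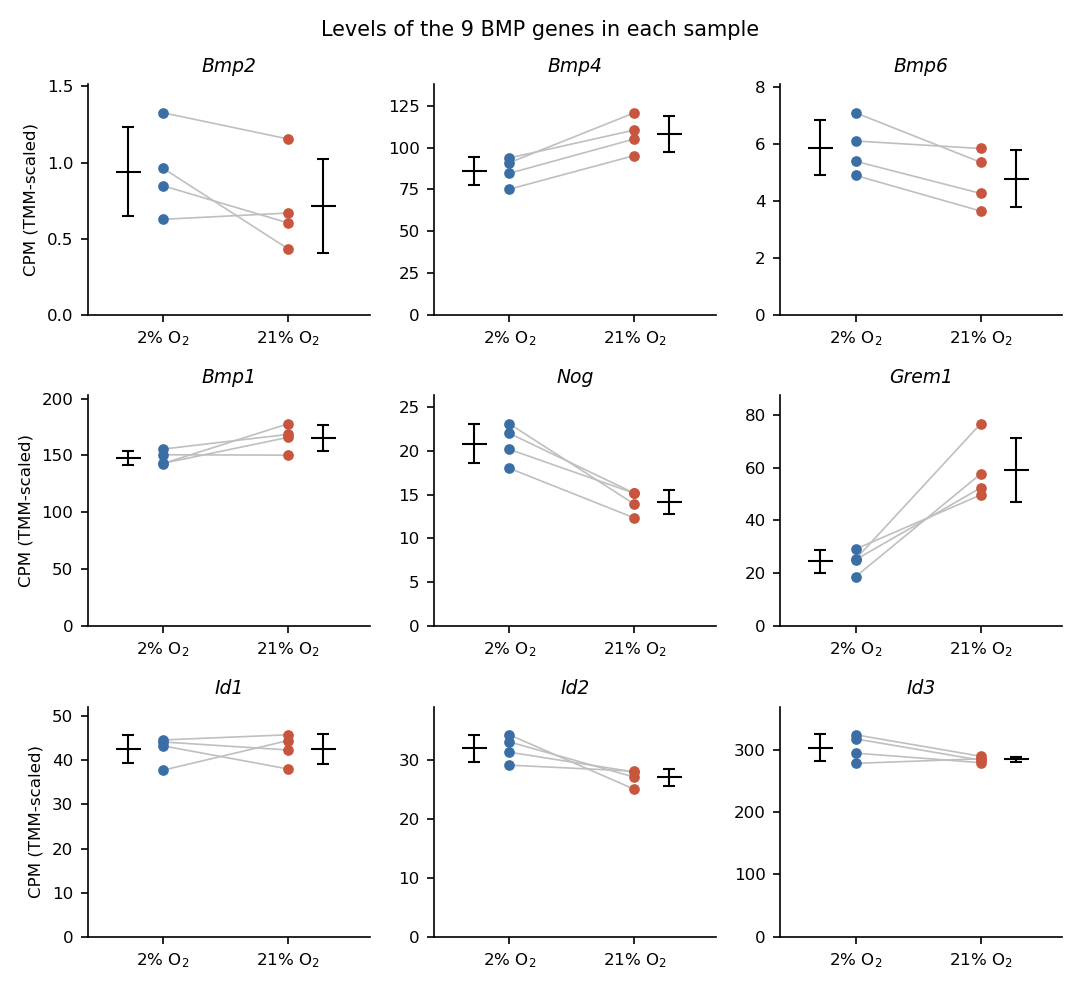
Level of each of the 9 genes in every sample, in CPM on an axis that starts at 0, at 2% and 21% oxygen; grey lines join samples of the same number, and the black cross bars show the mean and SD of 4 samples. Grem1 lies at 18.6 to 29.0 CPM in hypoxia and 49.6 to 76.6 CPM in normoxia without overlap, Nog falls without overlap, and Id1 overlaps fully.

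The counts of these antagonists can also be compared within each library, where the library scaling cancels. The log2 ratio of Grem1 to Nog counts was 0.48, 0.33, -0.24 and 0.31 in hypoxia and 2.64, 1.84, 1.93 and 1.79 in normoxia. Thus the antagonists had similar counts at 2% oxygen, with Nog ahead in hypoxia 3, and Grem1 counts exceeded Nog counts in each normoxic library. Counts also follow exon length, which is 4148 bases for Grem1 and 1695 for Nog. Per kb of exon Nog was the higher at 2% oxygen, at 12.3 against 5.90 CPM per kb on average. The mean log2 ratio was 0.22 ± 0.32 at 2% oxygen and 2.05 ± 0.40 at 21% oxygen (SD, n = 4 each). Against Bmp4, Grem1 moved from -1.83 ± 0.40 to -0.89 ± 0.31 and Nog from -2.05 ± 0.24 to -2.93 ± 0.14 on the same scale. No test was made of these ratios, which restate the changes of the single genes.

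**Figure D2:**
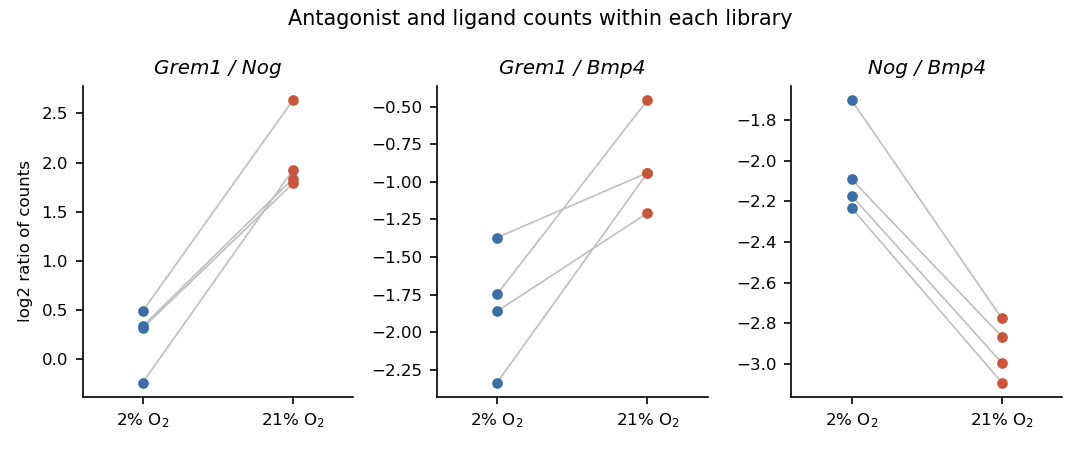
Log2 ratio of counts of Grem1 to Nog, Grem1 to Bmp4 and Nog to Bmp4 in each library at 2% and 21% oxygen, with grey lines joining samples of the same number (vertical axes differ and do not start at 0). The Grem1 to Nog ratio lies between -0.24 and 0.48 in hypoxia and between 1.79 and 2.64 in normoxia.

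Among the ligands, Bmp4 (ENSMUSG00000021835, chromosome 14, 46383520 to 46390669, minus strand) was by far the most expressed. It gave 84.6, 75.1, 93.8 and 90.9 CPM in hypoxia and 105, 95.2, 110.5 and 121 CPM in normoxia. The groups did not overlap, although normoxia 2 came within a few CPM of hypoxia 3. The mean rose from 86.1 ± 8.27 to 108 ± 10.7 CPM (SD, n = 4 each), which is 1.25-fold or 0.33 log2 units (SE 0.0857, adjusted p = 0.0116 by limma-trend). It was higher in 4 of 4 same-numbered pairs. In size this was an ordinary change, since 36.1% of tested genes changed by more.

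Bmp6 (ENSMUSG00000039004, chromosome 13, 38345107 to 38500302, plus strand) was low, at 4.89, 6.10, 5.39 and 7.09 CPM in hypoxia and 3.64, 5.83, 4.26 and 5.35 CPM in normoxia. The groups overlapped, but each normoxic sample was below the hypoxic sample of its number. The log2 change was -0.30 (95% interval -0.68 to 0.08, limma-trend adjusted p = 0.213), so a fall was not called. Bmp6 shares 224 of its 3900 exon bases with Txndc5 on the opposite strand. Txndc5 held 60557 counts over the 8 libraries against 614 for Bmp6, and the sources used here do not state whether counting used strand, so the Bmp6 counts are uncertain.

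Bmp2 (ENSMUSG00000027358, chromosome 2, 133552159 to 133562885, plus strand), a strongly osteogenic ligand, was close to the limit of what this depth can show. It had 15, 12, 17 and 11 counts in hypoxia and 9, 6, 16 and 8 in normoxia, which is 0.627 to 1.33 CPM and 0.432 to 1.15 CPM. The log2 change was -0.34 with a 95% interval from -0.98 to 0.30 (limma-trend adjusted p = 0.406). The interval gives the changes of Bmp2 compatible with these counts, so neither a fall nor a small rise was resolved.

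Bmp1 (ENSMUSG00000022098, chromosome 14, 70474558 to 70520234, minus strand), the protease, gave 151, 156, 143 and 143 CPM in hypoxia and 150.2, 169, 166 and 178 CPM in normoxia. The samples numbered 1 were nearly equal, and the other normoxic values were above all hypoxic ones. The log2 change was 0.16 (95% interval 0.02 to 0.30) and was not called without pairing (limma-trend adjusted p = 0.0647). With samples paired by number the adjusted p was 0.0194 at the same change, so the call on Bmp1 rests on whether the pairing is used. Without pairing it was also called when hypoxia 2 (adjusted p = 0.0491) or normoxia 1 (0.0317) was left out. In that paired fit 3 of the 9 genes were called higher and 2 lower, where 46% of all tested genes were called, 23.3% as higher and 22.7% as lower.

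The Id targets did not move together. Id3 (ENSMUSG00000007872, chromosome 4, 136143497 to 136145755, plus strand), the most expressed, gave 295, 278, 317 and 324 CPM in hypoxia and 279, 285, 283 and 289.5 CPM in normoxia. The normoxic values lay within the hypoxic range, and the log2 change was -0.09 (95% interval -0.22 to 0.04, limma-trend adjusted p = 0.257). Id1 (ENSMUSG00000042745, chromosome 2, 152736251 to 152737410, plus strand) gave 44.6, 37.8, 44.2 and 43.3 CPM in hypoxia and 45.8, 44.5, 42.4 and 38.1 CPM in normoxia. Its means were 42.5 ± 3.18 and 42.7 ± 3.40 CPM (SD, n = 4 each), and the 95% interval of the log2 change, -0.17 to 0.18, leaves out changes of the size seen for Nog or Grem1.

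Id2 (ENSMUSG00000020644, chromosome 12, 25093799 to 25097140, minus strand) gave 29.2, 34.3, 31.4 and 33.1 CPM in hypoxia and 28.1, 25.1, 28.0 and 27.1 CPM in normoxia. The groups did not overlap, but hypoxia 1 and normoxia 1 were only about a CPM unit apart. Its level fell by 0.24 log2 units (SE 0.0762, adjusted p = 0.0296 by limma-trend). This call was lost when any of hypoxia 2, 3 or 4 or normoxia 2 or 4 was left out, with adjusted p from 0.0525 to 0.0763, and with no normalization factors, where the change was -0.15 (adjusted p = 0.158). Counted by separation alone, Grem1, Bmp4, Nog and Id2 are the 4 of the 9 genes whose groups did not overlap, while 32.6% of all tested genes had this property.

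The libraries differed in how counts followed the GC content of genes. For each gene, log2 CPM was taken as its deviation from the mean over the 8 samples. The slope of these deviations per 10 points of GC was 0.074 to 0.18 in the hypoxic samples. It was -0.14 to -0.086 in the normoxic samples, so GC content and oxygen moved together. As deviations from a shared mean, the slopes compare samples and do not give the trend within a library. With GC content and length removed from each sample and samples paired, Grem1 changed by 1.10 (adjusted p = 2.16e-11), Nog by -0.37 (0.000914), Bmp4 by 0.41 (7.71e-08) and Id2 by -0.34 (0.000279) on the log2 scale. Those 4 calls were the same as before. The corrected changes of Bmp1 (0.29, adjusted p = 6.65e-06), Id1 (0.19, 0.0127) and Id3 (0.10, 0.0456) were called as higher in normoxia, and for Id3 the sign turned. Thus 5 of the 9 genes were higher and 2 lower in this fit, where 43.2% of all tested genes were called, 21.7% as higher and 21.5% as lower. The part of GC content in the uncorrected values was not tested further.

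**Figure D3:**
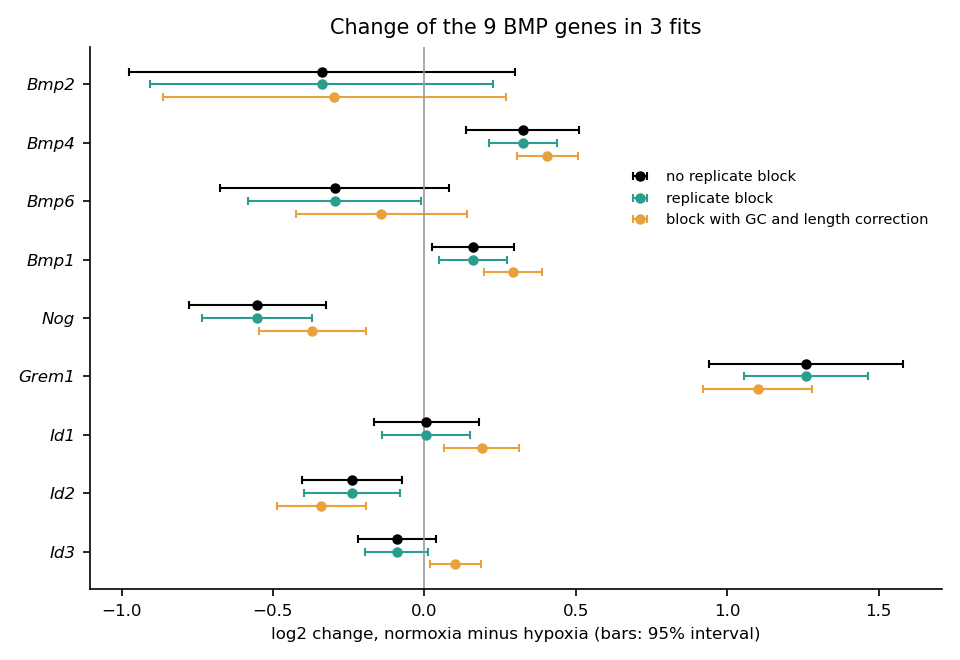
Log2 change, normoxia minus hypoxia, of the 9 genes with 95% intervals, from the fit without pairing, the fit with the sample number as a block, and the block fit after removal of GC content and length. Grem1, Nog, Bmp4 and Id2 stay on their side of 0 in each of these fits, whereas Id3 moves from -0.09 to 0.10 and Id1 from near 0 to 0.19.

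Levels can be compared between genes per length of exon. In hypoxia the order by mean CPM per kb was Id3 at 169, Bmp4 at 38.3, Id1 at 36.6, Bmp1 at 16.7, Id2 at 13.1, Nog at 12.3, Grem1 at 5.90, Bmp6 at 1.5 and Bmp2 at 0.265. The ranges over 4 samples overlapped for the neighbours Bmp4 and Id1 and for Id2 and Nog, so those orders are not resolved. In normoxia Grem1 stood at 14.2 CPM per kb, above Id2 at 11.1 and Nog at 8.34, without overlap of its range of 12.0 to 18.5 with theirs, but its range overlapped that of Bmp1 (16.9 to 20.1). Grem1 therefore moved from the seventh to the fifth place, and the other genes kept their order among themselves.

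**Figure D4:**
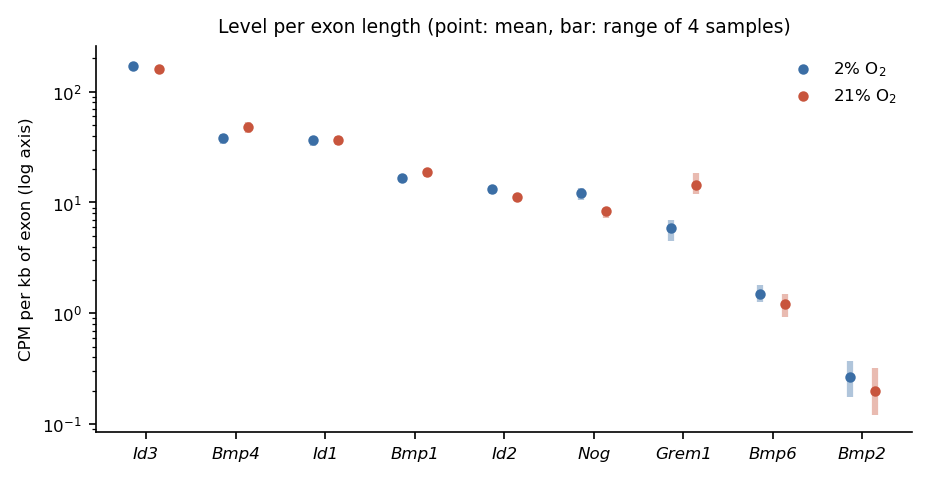
Level of the 9 genes in CPM per kb of exon (log axis) at 2% and 21% oxygen, with points for the mean and bars for the range of 4 samples. Levels span from 169 for Id3 to 0.265 for Bmp2 in hypoxia, and Grem1 passes from 5.90 to 14.2, above Nog and Id2.

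The label of oxygen was checked with genes that hypoxia-inducible factors are known to activate. Of 8 such genes 6 were called lower in normoxia at a limma-trend adjusted p under 0.05, against 16.5% of all tested genes. Car9, a carbonic anhydrase, changed by -2.34 and Egln3, an oxygen-sensing prolyl hydroxylase, by -0.91 on the log2 scale. Vegfa, at -0.06 (adjusted p = 0.511), and Adm, at -0.08 (0.595), were not called. Total counts were 25132141 in hypoxia 1 and 12898291 to 13433824 in the other 7 libraries, so that 3 counts correspond to 0.125 to 0.241 CPM. All 9 MSC surface markers were detected in every sample, with a summed level of 2811 to 3292 CPM in hypoxia and 3246 to 3735 CPM in normoxia. In that sum the mean of Itgb1 rose from 1075 to 1450 CPM and that of Cd44 from 250 to 411 CPM. Without pairing 4 of these markers were called higher and 0 lower, where 34.6% of all tested genes were called. With samples paired 5 were called higher and 3 lower, where 46% of all tested genes were called. The 3 were Ly6a, Thy1 and Pdgfrb. Blood markers were also present despite the sort, with all 9 detected in each sample and sums of 507 to 1012 CPM in hypoxia and 611 to 1148 CPM in normoxia. Those sums are dominated by Lyz2, whose mean rose from 354 to 523 CPM. In contrast, 7 of the 9 blood markers had negative changes, the median being -0.32 on the log2 scale. Without pairing 1 blood marker was called higher and 1 lower, and with samples paired 1 was called higher and 6 lower. Chondrocyte markers summed to 4905 to 6648 CPM in hypoxia and 3993 to 4773 CPM in normoxia. Most of that sum was Comp, with means of 4446 and 3468 CPM, which was not called (limma-trend adjusted p = 0.0603). Col2a1, at -0.33 (0.0229), and Sox9, at -0.58 (0.000706), were called lower. Acan changed by 0.29 (0.521), and was called higher in the paired fit with GC content and length removed (0.0128). Osteoblast markers summed to 506 to 649 CPM in hypoxia and 597 to 791 CPM in normoxia. In the osteoblast sum Spp1 rose from 391 to 567 CPM on average, whereas Alpl fell by 0.48 on the log2 scale (limma-trend adjusted p = 0.00826) and Ibsp changed by -0.61 (0.126, or 6.53e-05 with samples paired). Endothelial markers stayed at or below 2.65 CPM, with Tie1 and Emcn at 0, and adipocyte markers at or below 14.7 CPM. In bulk samples fewer cells of a type and less RNA per cell cannot be told apart, and the part of the chondrocyte and blood markers in the changes of the BMP genes was not tested.

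The rest of the pathway was described with 68 further genes, of which 52 were tested and 6 had no count. Of the 52, 12 were higher and 16 lower in normoxia and 24 were not called, so 53.8% were called against 34.6% of all tested genes. The median log2 change was -0.06. The split between directions depended on the processing. It was 19 higher and 18 lower when samples were paired, where 46% of all tested genes were called. With GC content and length removed as well it was 20 and 20, where 43.2% of all tested genes were called. With no normalization factors it was 19 and 10, where 5186 of the 14369 tested genes were called. For the 9 genes the fit with no normalization factors gave 3 higher and 1 lower. These lists, like the 9 genes, were drawn up with results of these data known.

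Ligands beyond the 3 were scarce. Of 11 listed, 9 did not pass the filter, among them Bmp7 with at most 6 counts in a sample. Gdf6, a ligand of joint formation, rose from 2.90 ± 1.07 to 5.65 ± 1.85 CPM (SD, n = 4 each, log2 change 0.93, adjusted p = 0.0205). Bmp5 changed by 0.31 and was not called (adjusted p = 0.248). In the tolloid list of 4, Tll1, a protease related to Bmp1, rose by 0.71 (adjusted p = 0.0163), while Pcolce, which enhances procollagen cleavage by these proteases, fell by 0.27 (adjusted p = 0.00549).

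Among 12 tested antagonists and extracellular modulators other than Nog and Grem1, 5 were higher and 3 lower. Thus 66.7% were called against 34.6% of all tested genes. Bmper, a secreted BMP-binding protein, rose by 0.97 (adjusted p = 0.00169), Fstl1 by 0.41 (0.00306) and Crim1, a membrane protein with chordin-like repeats, by 0.37 (0.0133) on the log2 scale. Kcp, a secreted chordin-related protein, fell furthest of all listed pathway genes. It gave 8.99, 17.7, 17.1 and 15.9 CPM in hypoxia and 1.78, 3.96, 2.81 and 3.92 CPM in normoxia, or -2.20 log2 units (SE 0.26, adjusted p = 0.000135 by limma-trend). Chrd, which encodes chordin, the substrate of the Bmp1 protease, fell by 0.33 (adjusted p = 0.0166) and its relative Chrdl1 by 0.45 (0.0308). The others called as higher were Fst, at 0.33 (0.0374), and Twsg1, at 0.19 (0.0288), which lay outside the 3 largest rises and were added after their values were seen.

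Of 10 tested receptors and co-receptors, 1 was higher and 4 were lower, so 50% were called against 34.6% of all tested genes. With samples paired 2 were higher and 5 lower, where 46% of all tested genes were called. With GC content and length removed as well 1 was higher and 7 lower, against 43.2%. Those 7 included the type II receptor genes Bmpr2, at -0.22 (limma-trend adjusted p = 0.000345), and Acvr2a, at -0.47 (5.41e-07), named after their values were seen. The type I receptor Bmpr1b rose from 7.23 ± 2.42 to 15.7 ± 3.86 CPM (SD, n = 4 each, log2 change 1.12, adjusted p = 0.00212). Rgma and Rgmb, which encode BMP co-receptors, fell by 0.81 (adjusted p = 0.000202) and 0.48 (0.00266), and the type I receptor Acvrl1 fell by 0.61 (0.00651). Bmpr1a, the most expressed receptor at 170.4 ± 8.30 and 187 ± 10.2 CPM, was not called (adjusted p = 0.11). With samples paired its change of 0.13 was called (adjusted p = 0.0375), and after the GC and length correction it was -0.09 (adjusted p = 0.12).

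Downstream of the receptors, Smad1 rose by 0.25 (adjusted p = 0.0257) and Smad4 fell by 0.26 (0.00468), while Smad5 and Smad9 were not called. In the paired fit with GC content and length removed, Smad5 was called lower, at -0.29 (limma-trend adjusted p = 4.49e-05). Of 8 intracellular inhibitors, 3 were higher and 2 lower, so 62.5% were called against 34.6% of all tested genes. Skil, a SMAD co-repressor, rose by 0.70 (adjusted p = 0.000835), whereas its relative Ski fell by 0.39 (0.000326). The ubiquitin ligase gene Smurf2 rose by 0.26 (0.00461), Tob1 rose by 0.23 (0.0179), and Bambi, a pseudoreceptor, fell by 0.37 (0.0372). Smad6 and Smad7, inhibitory SMADs that BMP signalling itself induces, were looked at after their values were seen. Smad6 changed by -0.09 (adjusted p = 0.233) and Smad7 by 0.25 (adjusted p = 0.0826, or 0.00179 with samples paired). With GC content and length removed in the paired fit, both were called higher. Smad6 then turned to 0.12 (limma-trend adjusted p = 0.0447) and Smad7 was 0.38 (1.98e-06).

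Of 10 targets other than the 3 Id genes, 3 were lower and none was higher without pairing, so 30% were called against 34.6% of all tested genes. With samples paired 1 was higher and 4 were lower, where 46% of all tested genes were called. With GC content and length removed as well 3 were higher and 3 lower, against 43.2% of all tested genes. The 3 called without pairing were the osteoblast regulators Sp7, at -0.80 (adjusted p = 0.000206), Runx2, at -0.35 (0.00185), and Dlx3, at -0.74 (0.0366), which had at most 40 counts in a sample. Each is also controlled by signals other than BMP. Atoh8, the most expressed gene of this list, changed by -0.05 (adjusted p = 0.716) but by 0.18 after the GC and length correction in the paired fit (0.00401). Of the E proteins that Id proteins bind, Tcf3 fell by 0.41 (0.00063) and Tcf4 by 0.28 (0.0167), while Tcf12 was not called (0.0996, or 0.0426 with samples paired). Msx2, named after its values were seen, changed by 0.82 (0.0566, or 0.00319 with samples paired). These adjusted p-values come from the limma-trend fit across all tested genes.

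Several of these pathway calls were less firm than those on Grem1, Nog and Kcp. With 1 sample left out at a time, the call on Dlx3 was lost without hypoxia 1, 3 or 4 or normoxia 3 or 4, that on Bambi without hypoxia 2, 3 or 4 or normoxia 1 or 3, and that on Smad1 without hypoxia 3 or 4 or normoxia 1, 2 or 4. The call on Chrdl1 was lost without hypoxia 4 or normoxia 1, 3 or 4, that on Gdf6 without hypoxia 2 or normoxia 3 or 4, that on Tob1 without normoxia 1 or 3, and that on Tll1 without normoxia 2. Their adjusted p then lay between 0.0537 for Gdf6 and 0.113 for Bambi. With the paired GC and length correction the calls on Dlx3 (adjusted p = 0.0577) and Tob1 (0.0802) were also lost. Without pairing, that correction ended the calls on Chrd (0.0503), Pcolce (0.0578) and Smurf2 (0.0713). With no normalization factors those on Tcf4 (0.0741), Chrd (0.0567), Chrdl1 (0.0738), Bambi (0.110) and Dlx3 (0.0549) were lost, and that on Chrd also without both samples numbered 1 (0.0710).

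**Figure D5:**
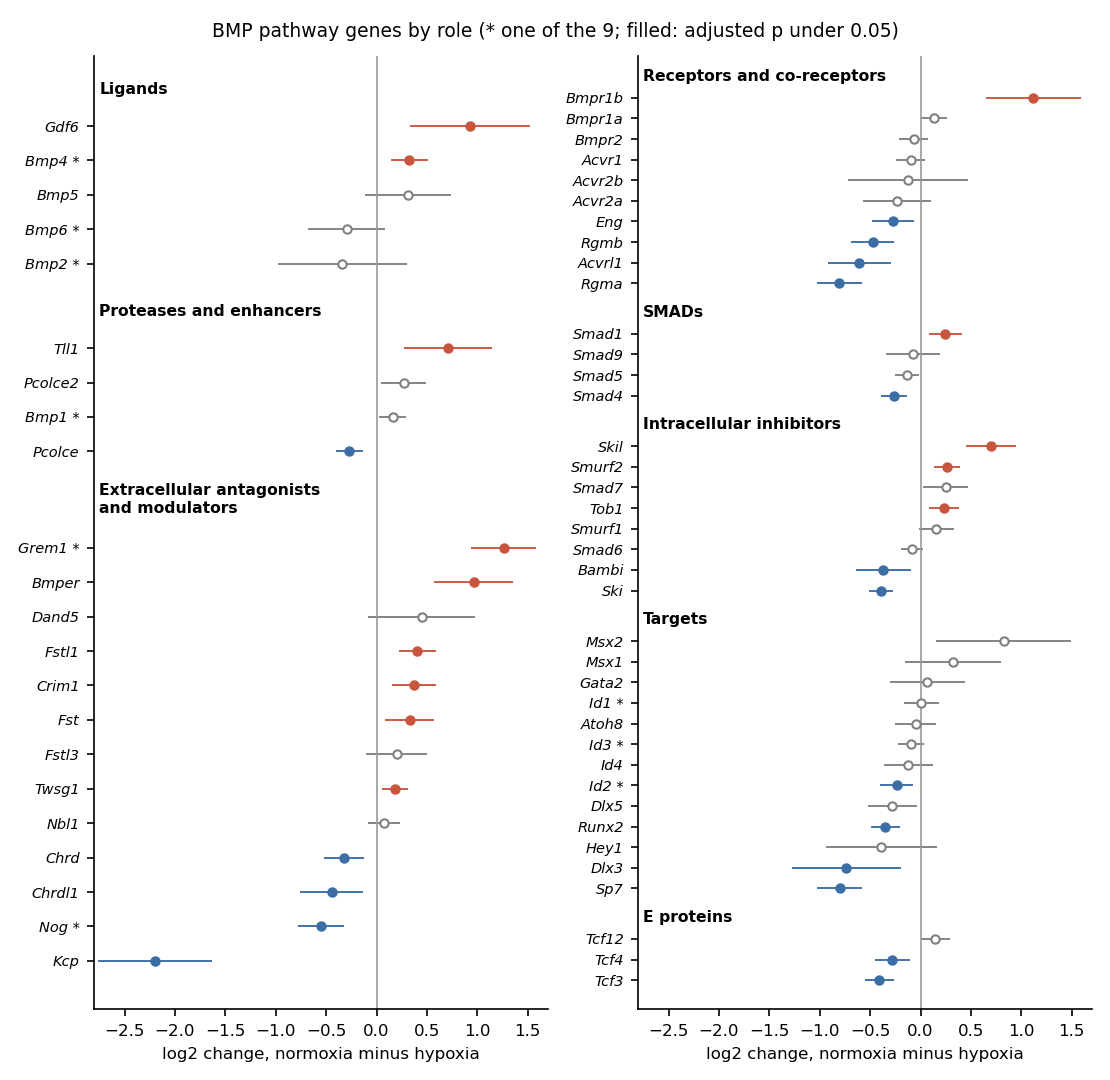
Log2 change, normoxia minus hypoxia, with 95% intervals for the 9 genes (asterisks) and the other tested pathway genes reported here, grouped by role and sorted by size; filled points are past an adjusted p of 0.05, red for higher and blue for lower in normoxia. Grem1 at 1.26 and Kcp at -2.20 lie at the ends of the group of extracellular antagonists and modulators, and among the targets Sp7 lies lowest at -0.80.

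The genes whose levels across the 8 samples were most like those of each member were sought among genes with a mean log2 CPM of at least 3. For Grem1 these were N4bp2l2 and Procr, both with a Pearson correlation of 0.99, and 186 genes had a correlation over 0.95. For Nog they were Mical1 and Ago1, both at 0.99, and 183 genes were over 0.95. For Bmp4 they were 2310011J03Rik (0.99) and Gtf2h3 (0.97), for Bmp1 Tcf12 (0.99) and Brwd1 (0.98), and for Bmp6 Eda (0.97) and Mfsd4b4 (0.96). For Bmp2 they were Arrb1 (0.947) and Ckb (0.94), for Id1 Ppp1r11 (0.949) and Fam122a (0.92), for Id2 Fam172a (0.97) and Spred1 (0.96), and for Id3 Tmem256 and Tspo (both 0.96). No gene was over 0.95 for Id1 or Bmp2. The samples fall into 2 groups and share libraries and scaling, so these correlations are a description.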

How the data were processed

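Bulk RNA-seq was performed on mouse bone-derived MSCs, with 4 samples at 2% oxygen and 4 at 21% oxygen. The authors prepared libraries from total RNA, sequenced single-end reads, processed them with zUMIs, STAR, samtools and featureCounts on mm10 with Ensembl annotation, and deposited raw counts per gene, which are whole numbers and not normalized. Strand, intron and multi-mapping settings are not given in the sources used here.

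Symbols and positions came from GENCODE M21 (GRCm38) for 53274 of 53465 identifiers; the rest held 0.0216% of counts. Genes were filtered with filterByExpr (edgeR 4.0.16, minimum count 5), leaving 14369 genes with 99.9% of counts. TMM-scaled log2 CPM with a prior count of 3 were compared with limma-trend (limma 3.58.1, R 4.3.3), with Benjamini-Hochberg adjustment over all tested genes and a threshold of 0.05, following the study's methods, which do not state the normalization. CPM values are TMM-scaled without a prior count. Intervals are 95%. The GC and length correction removed natural splines with 5 degrees of freedom from each sample, for 14353 genes.

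Same-numbered samples deviated from their group means together (correlations across genes of 0.47, 0.28, 0.25 and 0.17), and the study describes dividing a sorted population, so the numbers were taken to pair samples; the fit with the number as a block is given where it changed a call. The genes named were the 9 members, the called genes of 8 pathway lists (at most the 3 largest changes per direction and list), the most expressed gene of each list, and the 2 genes most correlated with each member; other pathway genes named were picked once their values were known. A listed pathway gene that was counted is not reported here by name. The members and lists were chosen with earlier results of these data known. Alternatives changed the test (edgeR quasi-likelihood, DESeq2 1.42.0, limma-voom), normalization, filter, prior count, threshold and samples. In simulated data for this comparison with 196 of 14207 tested genes given a log2 change of 1, the main test found 81.1% of them, and 9.14% of its calls were unchanged genes.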

Additional observations from a re-analysis of the deposited data

Results flagged for a closer look

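Within each group of 4 samples, the gap between an end value and its neighbour was divided by the range for 76 sets of values. These were the log2 CPM, in each group, of the 9 genes and the pathway genes named by the rule above, and the total counts. The other tested pathway genes were not searched. Ratios past the 95% critical value of Dixon are given here. Chance flags about 1 in 20 sets, which is 3.8 of 76, and 4 were found. None concerned the 9 BMP genes.

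Total counts in hypoxia had a ratio of 0.976, because hypoxia 1 held 25132141 counts and the other 3 held 12929564 to 13219647. Thinning hypoxia 1 to 13165939 counts changed no call among the 9 genes. Tll1 in hypoxia had a ratio of 0.855, with hypoxia 4 lowest at 4.08 CPM against 6.71 to 7.30 CPM. Kcp in hypoxia had a ratio of 0.836, with hypoxia 1 lowest at 8.99 CPM against 15.9 to 17.7 CPM, and all 4 were above the normoxic values. Runx2 in hypoxia had a ratio of 0.852, with hypoxia 2 highest at 62.5 CPM against 53.3 to 54.6 CPM.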

How the results depend on the processing

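Grem1 and Nog kept their direction and their call in all 25 alternatives, with log2 changes of 1.10 to 1.35 and -0.62 to -0.37. Bmp4 kept both except at a threshold of 0.01, and Bmp6 and Bmp2 were called in none (Bmp2 was not in the stricter filter, with 24 alternatives). Members called higher numbered 1 at a threshold of 0.01, 5 with the GC and length correction in the replicate block, and 2 to 3 when a sample was left out; members called lower numbered 1 at 0.01, 1 with no normalization factors, which shifted the median of all genes by 0.087, and 1 to 2 when a sample was left out. Other pathway genes called higher numbered 19 with the replicate block, 19 with no factors, 20 with the GC and length correction in the block, 5 at 0.01 and 8 to 14 when a sample was left out; those called lower numbered 10 with no factors, 10 at 0.01 and 12 to 16 when a sample was left out. All tested genes called numbered 6610 with the replicate block, 5186 with no factors and 6202 with the GC and length correction in the block. They numbered 2925 at 0.01 and 3838 to 5423 when a sample was left out, lowest without hypoxia 3. Bmp1 (0.16) was called with the block (adjusted p = 0.0194), with no factors (0.25), with the GC correction (0.29), without hypoxia 2 or normoxia 1, and without both samples numbered 1. The near-zero Id1 change turned negative with DESeq2 (-0.0049), RLE factors (-0.0034), upper quartile factors (-0.022), hypoxia 1 thinned (-0.0076) and without both samples numbered 1 (-0.011), and was -0.048 to 0.050 when a sample was left out, with -0.041 without normoxia 1 and -0.026 without normoxia 2. With or without the block, the GC and length correction turned Id3 to 0.10, Bmpr1a to -0.086 and Atoh8 to 0.18, and no factors turned Atoh8 to 0.038. Among the 9 genes the replicate block changed no call but that of Bmp1. The causes of these shifts were not tested. Bmp2 rested on 6 to 17 counts a sample, and its change was poorly resolved.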
